A study of Mus musculus with 6 samples.

Results

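The 45 genes described here belong to the machinery that copies DNA and divides cells. They were taken by gene symbol from a table of 18849 genes, and all 45 were found. They were split by known role into 18 replication genes, which act from the G1/S boundary through S phase, 24 mitotic genes and the 3 D-type cyclins. Kidney tissue RNA was sequenced from male C57BL/6 mice aged 8 weeks, 14 days into unilateral ureteral obstruction, in which a tied ureter injures the kidney above it. The 3 control libraries come from mice whose Abl1 gene (c-Abl, a tyrosine kinase) carries loxP sites and is otherwise intact. They are called floxed here after the series' design text, although their genotype label reads WT. The 3 knockout libraries come from floxed mice that also carry Ksp-Cre, and their genotype label reads c-Abl knockdown. The Ksp promoter drives Cre in tubule epithelium, so the design does not delete Abl1 in other kidney cells. All 6 kidneys were obstructed, and no uninjured kidney was analysed here. The labels do not say that each library is a separate mouse, so the p-values cover only variation among these libraries, which may be technical.

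Cells leave rest when D-type cyclins with their kinases switch off the RB proteins and free E2F transcription factors, which turn on genes for origin licensing, the MCM helicase and nucleotide supply. Later in the cycle FOXM1, B-MYB and the MuvB complex turn on the genes of chromosome segregation. Healthy adult tubule cells divide rarely. In an obstructed kidney, tubule cells, fibroblasts and infiltrating immune cells can all enter the cycle, so whole-tissue RNA mixes them.

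Promoter sequences show what the replication and the mitotic genes share apart from their roles. RefSeq promoters (build GRCm38.p6, 250 bases before to 50 after a gene's start) were available for 36 members. They were searched on both strands for 3 E2F words (TTTCGCGC, TTTGGCGC and TTTCCCGC), for the cell cycle genes homology region word TTTGAA (CHR), and for the CCAAT box that NF-Y binds. E2F words on opposite strands can overlap each other, and a gene counts once however many matches it has. An E2F word stood in 7 of 16 replication members (43.8%) and in 1 of 19 mitotic members, Cdk1 (5.26%), against 2.12% of the 27025 genes in the promoter table. The CHR word stood in 14 of 19 mitotic members (73.7%) and in 3 of 16 replication members (18.8%), against 20.2% of all genes. CCAAT stood in 16 of 19 mitotic members (84.2%) and 10 of 16 replication members (62.5%), against 41.1% of all genes. The wider pathway lists had the same layout. E2F words stood in 14 of 41 other replication genes (34.1%) and 6 of 57 other mitotic genes (10.5%), and the CHR word in 6 of 41 (14.6%) and 35 of 57 (61.4%). These are matches of letters in a window and say nothing about binding in these kidneys.

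The 5 stretches that follow are from the 2 replication and 3 mitotic members with the smallest p whose promoters held a match. Each runs 5′ to 3′ on the gene's strand over 180 bases, 150 before the start and 30 from it. Positions count from 1 at the first transcribed base, with -1 just before it, and give the first base of a match along the stretch. Capitals mark the matched words, and a match on the opposite strand reads as the reverse complement (ATTGG for CCAAT).
Mcm3 (helicase subunit, chr1:20820283-20820462, minus strand): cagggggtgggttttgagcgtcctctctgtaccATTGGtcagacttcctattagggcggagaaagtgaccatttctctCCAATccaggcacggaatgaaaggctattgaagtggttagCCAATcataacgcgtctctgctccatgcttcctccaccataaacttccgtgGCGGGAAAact
Cdc45 (helicase activator, chr16:18811943-18812122, minus strand): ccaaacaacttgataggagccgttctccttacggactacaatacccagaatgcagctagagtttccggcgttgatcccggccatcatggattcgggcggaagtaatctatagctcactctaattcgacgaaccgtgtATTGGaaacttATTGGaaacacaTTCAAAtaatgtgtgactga
Kif11 (spindle motor, chr19:37376232-37376411, plus strand): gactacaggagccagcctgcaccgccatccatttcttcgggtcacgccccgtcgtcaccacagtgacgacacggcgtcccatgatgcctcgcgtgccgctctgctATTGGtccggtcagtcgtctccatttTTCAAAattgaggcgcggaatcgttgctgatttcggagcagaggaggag
Mki67 (mitotic chromosome coat, chr7:135716350-135716529, minus strand): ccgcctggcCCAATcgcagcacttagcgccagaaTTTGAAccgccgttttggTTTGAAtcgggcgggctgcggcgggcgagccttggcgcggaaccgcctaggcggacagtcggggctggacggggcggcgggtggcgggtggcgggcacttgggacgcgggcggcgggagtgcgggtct
Top2a (topoisomerase, chr11:99024160-99024339, minus strand): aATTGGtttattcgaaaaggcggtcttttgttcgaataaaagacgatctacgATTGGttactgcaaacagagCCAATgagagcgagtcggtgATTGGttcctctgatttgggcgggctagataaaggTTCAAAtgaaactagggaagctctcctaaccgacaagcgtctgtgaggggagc
In Mcm3 the E2F word starts at 20, and another lies at 39, beyond the stretch shown. The CHR word starts at 11 in Cdc45, at -19 in Kif11, at -116 and -98 in Mki67 and at -23 in Top2a, which has another at -179, beyond the stretch shown. Cdc45 likewise has another at -240. In all 4 a CCAAT box lies upstream of the CHR word shown, the nearest at -2 in Cdc45, -45 in Kif11, -141 in Mki67 and -58 in Top2a. The coordinates belong to GRCm38.p6, while the expression values were made on mm9.

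**Figure D1:**
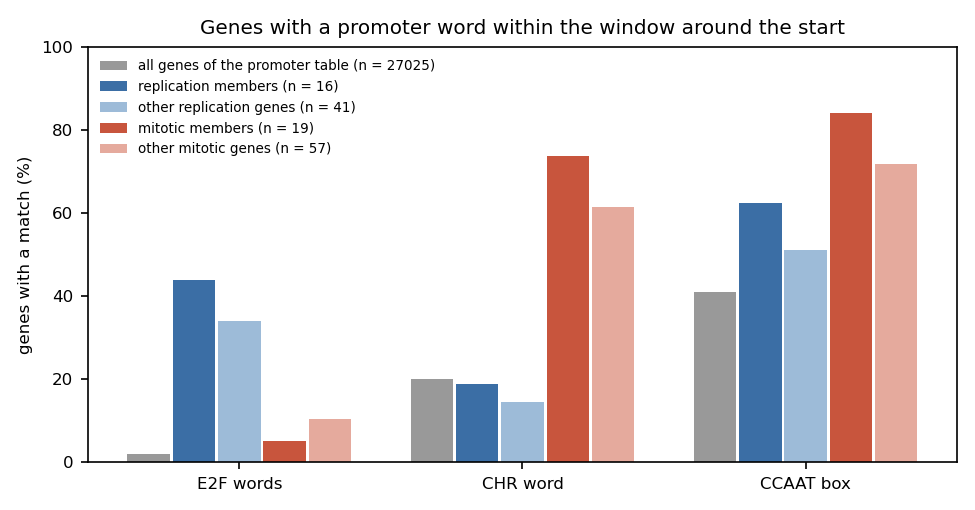
Bars give the percentage of genes (vertical axis) whose promoter window holds an E2F word, the CHR word or a CCAAT box (horizontal axis), for all 27025 genes, the replication and mitotic members and the wider lists of the same roles. E2F words are most frequent in the replication genes, at 43.8% and 34.1%, and the CHR word in the mitotic genes, at 73.7% and 61.4%.

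Values are FPKM, which is scaled by gene length and by mapped fragments, so levels of different genes can be set side by side. The spacing of low values put the libraries at 15900000 to 17700000 fragments, where 1 FPKM in a 2000-base transcript is about 31.8 to 35.4 fragments. The targeted gene Abl1 read 18.16, 15.93 and 17.33 FPKM in the floxed libraries and 10.46, 14.45 and 12.91 in the knockout libraries, with no overlap (limma adjusted p = 0.144). Kidney tubule markers were present in every library. The knockout libraries differed among themselves: on the first principal component, with 61.8% of the variance, floxed libraries lay between -29.0 and -26.2. Knockout replicate 1 lay at 54.1 and replicate 2 at 37.4, but replicate 3 lay at -7.48, nearer to the floxed libraries. Counts are therefore given with and without single libraries.

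Cell cycle genes stood lower in the knockout kidneys as a group, but no single member passed the test over all genes. Of the 45 members 44 passed the filter of at least 1 FPKM in at least 3 libraries. Of these 44, 43 had a log2 fold change below 0, all but Ccnd1, against 8761 of all 13390 tested genes. The median log2 fold change (knockout minus floxed, on the log2(FPKM + 1) scale) was -0.54 over the 44 tested members and -0.12 over all 13390 tested genes. By limma with Benjamini-Hochberg adjustment over all genes, 0 of 44 members passed 0.05, against 0.0672% of all genes, and the lowest adjusted p was 0.0889, for Mcm3. At an unadjusted limma p under 0.05, 26 of 44 members were lower and 0 higher, against 16.3% and 8.38% of all tested genes. In 28 of 44 every knockout library lay below every floxed library, against 21.7% of tested genes, and in 0 every knockout library lay above, against 10.0%. Bub1 passed the filter through its floxed libraries alone, and 7 other members had at least 1 knockout library under 1 FPKM. With no filter, all 45 could be tested and 44 had a fold change below 0. Of these, 26 were lower at an unadjusted p under 0.05, against 14.3% of all genes, and 0 passed the adjusted threshold.

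Single libraries weighed on these counts. Without knockout replicate 3, the library nearest to the controls, 20 of 44 members passed the limma adjusted threshold, all lower, against 15.8% of tested genes that passed as lower. These were 5 replication genes, 14 mitotic genes and Ccnd2. That library was singled out after its position was seen. Without knockout replicate 2, which held the lowest values, 16 members were lower at an unadjusted p under 0.05, against 10.6% of genes, and 0 passed the adjusted threshold. Without floxed replicate 1 the unadjusted count was 17 of 43 tested members, against 11.5% of genes, and without floxed replicate 3 it was 13 of 43, against 10.4%. With quantile normalization it was 13 of 44, against 12.0% of genes, the member median stayed below 0, and Cdt1, Tyms and E2f2 changed sign. With median-ratio scaling, which moved the median of all genes from -0.12 to 0.0012, it was 21 of 44, against 12.0% of genes, and Cdt1, Tyms and Ccnd3 changed sign.

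**Figure D2:**
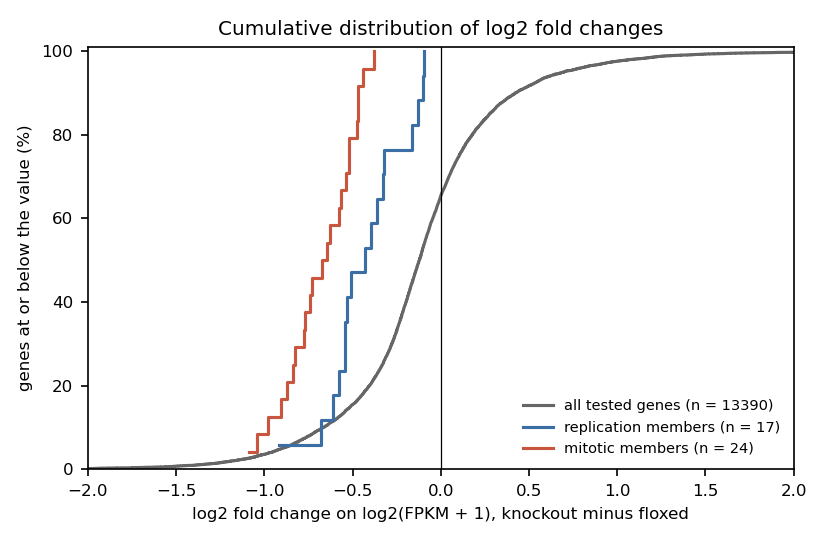
Lines give the percentage of genes (vertical axis) at or below each log2 fold change (horizontal axis, knockout minus floxed, log2(FPKM + 1) scale) for 13390 tested genes, 17 replication members and 24 mitotic members. Both member lines end below 0, at -0.093 for replication and -0.38 for mitotic members, and the mitotic line lies to the left of the replication line over most of its range.

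The MCM helicase, a ring of 6 subunits (Mcm2 to Mcm7) that unwinds DNA at the fork, was lower in the knockout libraries in all its subunits. In 5 of 6 every knockout library lay below every floxed one, against 21.7% of all tested genes. At an unadjusted limma p under 0.05, 5 of 6 were lower, against 16.3% of all tested genes. Mcm3 read 13.28, 10.05 and 10.90 FPKM in floxed and 7.40, 5.44 and 7.46 in knockout replicates 1, 2 and 3. Its log2 fold change was -0.68 (SE 0.167, limma adjusted p = 0.0889). The knockout libraries were all below the lowest floxed one, with replicate 2 lowest. Mcm4 read 10.33, 8.45 and 8.91 FPKM in floxed and 6.45, 5.18 and 6.47 in knockout libraries (a log2 fold change of -0.54 with SE 0.142, limma adjusted p = 0.0975). Mcm2 read 10.54, 9.81 and 10.03 in floxed and 8.62, 5.93 and 7.40 in knockout libraries (-0.43, limma adjusted p = 0.149). Both showed the same separation, and the floxed libraries had a small spread in Mcm2 (SD 0.37 FPKM). Mcm6 had the lowest fold change of the subunits (-0.92) and overlapped, because floxed replicate 1 read 9.11 FPKM beside 17.11 and 20.16 in the other floxed libraries, while knockout replicate 2 read 3.37. Mcm7, the most abundant subunit, went from a mean of 21.7 ± 2.25 (SD, n = 3) in floxed to 15.2 ± 3.30 FPKM in knockout libraries, and Mcm5 from 5.41 ± 0.497 to 3.53 ± 1.17.

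Of the 3 tested factors that load and fire the helicase at origins, all were below 0 and Cdc45 alone did not overlap. Over all tested genes, 21.7% had every knockout library below every floxed one. Cdc45, which activates the MCM ring together with the GINS complex, read 2.34, 2.36 and 2.74 FPKM in floxed and 1.65, 1.14 and 1.40 in knockout libraries. The groups did not overlap (log2 fold change -0.54, SE 0.153, limma adjusted p = 0.109). The GINS subunit Gins2 read 10.71, 7.57 and 7.61 in floxed and 8.42, 3.64 and 8.35 in knockout libraries. There only knockout replicate 2 lay below the floxed range (limma adjusted p = 0.469). The licensing factor Cdt1 was nearly level, at 4.08 ± 0.720 and 3.73 ± 0.549 FPKM. Cdc6, which loads MCM onto DNA, was too low for the filter, at 0.80, 0.61 and 0.73 FPKM in floxed and 0.58, 0.41 and 0.41 in knockout libraries, which did not overlap.

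The clamp and the enzymes of nucleotide supply had a median log2 fold change of -0.32, the closest to 0 of the replication roles. Pcna, the sliding clamp of the polymerases, had the highest mean level of all members in each group, although Ccnd3 was above it in knockout replicates 1 and 2 and Ccnd1 in knockout replicate 1. It read 96.58, 79.58 and 92.56 FPKM in floxed and 68.81, 60.31 and 74.18 in knockout libraries. The knockout values were all below the floxed range, by a small margin (log2 fold change -0.40, SE 0.133, limma adjusted p = 0.141). Rrm1, the large subunit of ribonucleotide reductase, read 11.97, 9.76 and 10.37 in floxed and 7.48, 7.16 and 10.78 in knockout libraries. Knockout replicate 3 lay within the floxed range (limma adjusted p = 0.292). The small subunit Rrm2 read 10.25, 7.02 and 8.95 against 8.07, 5.14 and 7.15 FPKM and also overlapped. Thymidylate synthase (Tyms), at 8.80 ± 0.503 and 8.22 ± 1.04, and thymidine kinase (Tk1), at 15.2 ± 5.52 and 12.9 ± 0.364, had fold changes of -0.093 and -0.16. The wide floxed spread of Tk1 came from floxed replicate 1, at 21.40 FPKM.

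Among the regulators of S phase entry, E2f1, an activating E2F factor, read 4.48, 3.03 and 4.28 FPKM in floxed and 2.38, 1.95 and 2.28 in knockout libraries. All knockout values were below all floxed values (log2 fold change -0.61, SE 0.169, limma adjusted p = 0.105). Ccne1, the cyclin that drives CDK2 into S phase, read 2.90, 1.82 and 1.85 in floxed and 0.89, 1.22 and 1.25 in knockout libraries. It separated as well, and knockout replicate 1 rather than 2 was lowest (-0.58, limma adjusted p = 0.135). Another activating factor, E2f2, overlapped at 2.28 ± 1.49 and 1.83 ± 0.392 FPKM, with its highest value in floxed replicate 1.

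In all 8 mitotic kinases and cyclins every knockout library lay below every floxed one, against 21.7% of all tested genes. At an unadjusted limma p under 0.05, 7 of 8 were lower, against 16.3% of all tested genes. Aurkb, the kinase of the chromosomal passenger complex, read 4.61, 3.49 and 4.27 FPKM in floxed and 1.95, 0.73 and 2.41 in knockout libraries. The ratio of the means was 0.411 (log2 fold change -0.98, SE 0.268, limma adjusted p = 0.104). Foxm1, the transcription factor of the G2/M program, read 3.75, 2.77 and 3.37 in floxed and 1.65, 0.98 and 2.25 in knockout libraries (-0.73, limma adjusted p = 0.115). In both genes knockout replicate 2 was lowest and replicate 3 highest of the knockout libraries. Cdk1, the kinase that drives mitotic entry, read 3.81, 3.67 and 4.05 in floxed and 2.61, 1.12 and 2.64 in knockout libraries (-0.68, limma adjusted p = 0.148). Its partner cyclin Ccnb1 read 3.03, 2.57 and 4.45 in floxed and 2.26, 0.82 and 2.46 in knockout libraries. The gap for Ccnb1 was narrow, between 2.57 and 2.46 FPKM (limma adjusted p = 0.225). The others did not overlap either. Ccna2, which serves S phase and mitosis, had means of 6.84 ± 0.563 and 3.62 ± 1.55 FPKM. Ccnb2 had 7.46 ± 1.34 and 4.07 ± 1.44. Plk1, a kinase of mitotic entry and spindle assembly, had 4.51 ± 0.680 and 2.29 ± 0.893. Aurka, the centrosome kinase, had 3.76 ± 0.567 and 2.31 ± 0.355.

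Of the 10 genes for the spindle, kinetochore and cytokinesis, 6 had every knockout library below every floxed one, against 21.7% of all tested genes. At an unadjusted limma p under 0.05, 5 were lower, against 16.3% of all tested genes. Both counts include Bub1, which passed the filter through its floxed libraries alone. Kif11, the motor that pushes spindle poles apart, read 2.53, 2.13 and 2.91 FPKM in floxed and 1.20, 0.67 and 1.52 in knockout libraries (-0.74, SE 0.201, limma adjusted p = 0.101). Birc5 (survivin), a partner of Aurkb, read 11.83, 8.02 and 11.38 in floxed and 5.76, 3.07 and 6.96 in knockout libraries (-0.90, limma adjusted p = 0.121). The ratio of the means was 0.448 for Kif11 and 0.506 for Birc5, and in both genes every knockout library lay below every floxed one. Tpx2, which activates Aurka on the spindle, had means of 5.06 ± 1.45 and 2.38 ± 1.11 FPKM. Kif23, a motor of the midbody, had 6.62 ± 0.906 and 4.27 ± 0.836. The checkpoint kinase Bub1 had 1.25 ± 0.303 and 0.570 ± 0.168, and the kinetochore motor Cenpe 1.39 ± 0.320 and 0.860 ± 0.390. The 4 that overlapped were Bub1b, Cdca8, Kif20a and Nusap1. In each of them knockout replicate 3 reached into the floxed range, as in Cdca8, a passenger complex subunit, with 5.27 FPKM there beside 3.29 and 1.88.

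The remaining mitotic genes act on chromatin or on exit from mitosis. In 5 of 6 every knockout library lay below every floxed one, against 21.7% of all tested genes. Mki67 (Ki-67), the usual tissue marker of cycling cells, read 8.44, 5.54 and 6.60 FPKM in floxed and 3.50, 2.24 and 4.66 in knockout libraries. The ratio of its means was 0.505 (log2 fold change -0.84, SE 0.241, limma adjusted p = 0.112). Top2a, which untangles sister chromatids, read 7.75, 5.74 and 8.00 in floxed and 3.47, 1.47 and 4.49 in knockout libraries (-1.04, limma adjusted p = 0.114). Ube2c, the ubiquitin-conjugating enzyme of the anaphase-promoting complex, had the lowest fold change of all members, -1.09 (limma adjusted p = 0.117), with means of 14.6 ± 3.09 and 6.73 ± 3.12 FPKM. Cdc20, an activator of that complex, had 6.13 ± 2.01 and 3.69 ± 1.49, and Cdca5 (sororin), which holds sister chromatids together, 2.63 ± 0.0737 and 1.65 ± 0.542. Cdca3, at 7.12 ± 1.36 and 4.76 ± 2.30, overlapped.

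**Figure D3:**
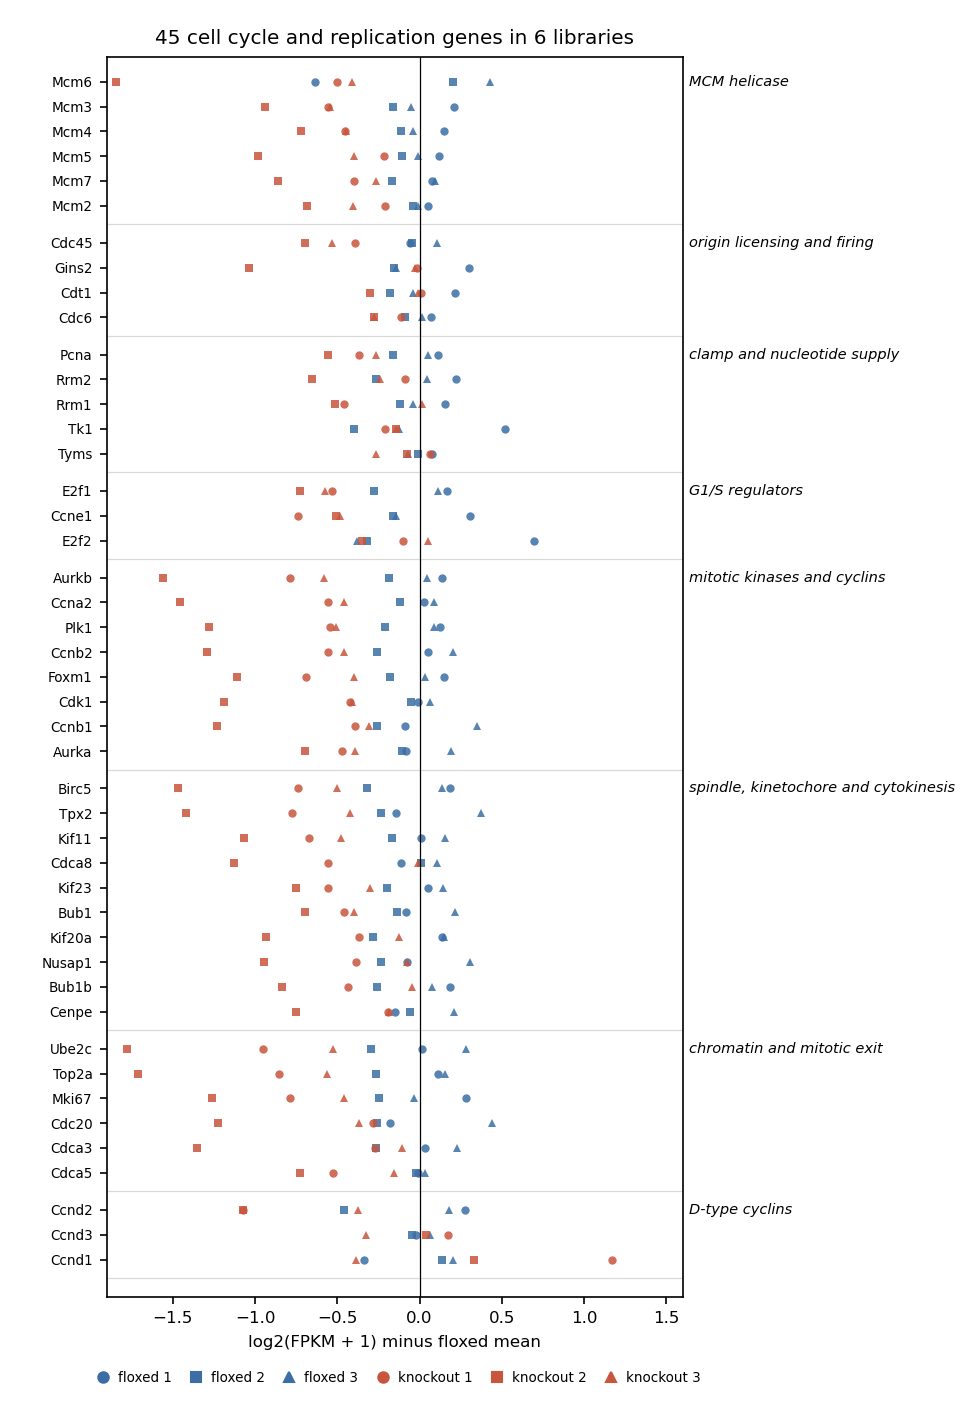
Each row is 1 of the 45 members, grouped by role, and each point a library's log2(FPKM + 1) minus the mean of the 3 floxed libraries (horizontal axis), with shape for the replicate and colour for the genotype. Knockout replicate 2 is the lowest of the 6 libraries in all 24 mitotic rows, and of the D-type cyclins at the bottom Ccnd2 alone has all 3 knockout points below the floxed mean.

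Set side by side, the mitotic genes had a median log2 fold change of -0.66 and the replication genes of -0.43. Every knockout library lay below every floxed one for 19 of 24 mitotic and for 9 of 17 tested replication members, against 21.7% of all tested genes. Mitotic genes are also the less abundant, with a median floxed level of 4.69 FPKM against 8.80, and adding 1 to FPKM shrinks the fold changes of low genes more. With a pseudocount of 0.1 the medians were further apart, with the mitotic median lower by 0.44 in place of 0.23. By library, the replication median of the knockout libraries (replicates 1, 2 and 3) lay at -0.37, -0.68 and -0.27 relative to the floxed mean, and the mitotic median at -0.55, -1.21 and -0.40. Mitotic minus replication was -0.18, -0.52 and -0.13 in those libraries and -0.13, -0.064 and 0.19 in floxed replicates 1, 2 and 3. Apart from knockout replicate 2, the knockout values thus lay close to that of floxed replicate 1, and the SD between replicates was 0.19. Without knockout replicate 2 the medians were -0.43 for mitotic and -0.31 for replication genes, a difference of -0.12, and with quantile normalization the difference was also -0.12.

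The order of the libraries also differed between the 2 kinds of gene. Knockout replicate 2 was the lowest of the 6 libraries in all 24 mitotic members and in 14 of 18 replication members, with Cdc6 tied. Knockout replicate 3 was the highest knockout library in 23 of 24 mitotic members. On the first principal component of all genes it was knockout replicate 1, not 2, that lay farthest from the controls. Among the floxed libraries, replicate 1 was the highest in 15 of 18 replication members but in 6 of 24 mitotic members. Floxed replicate 3 was the highest in the other 18 mitotic members.

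**Figure D4:**
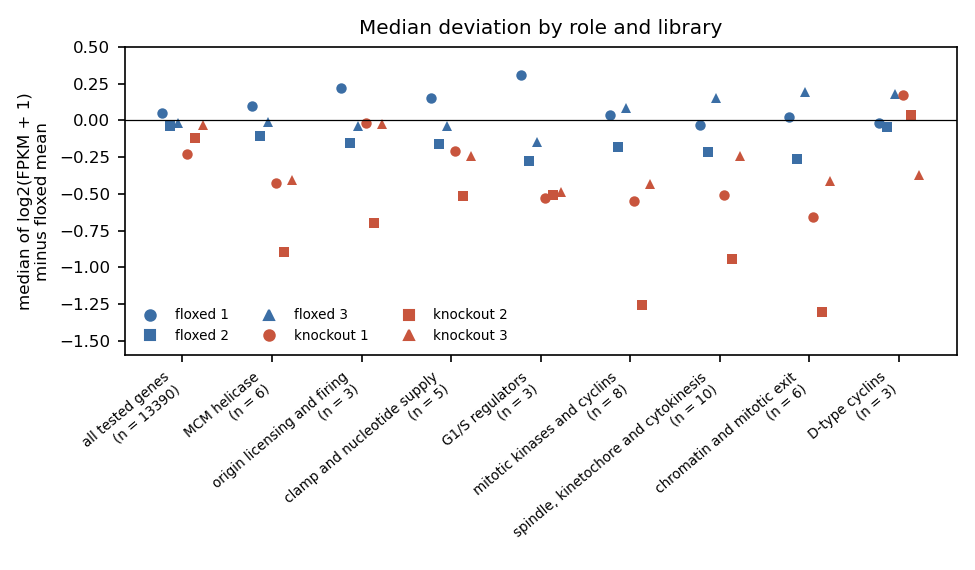
Points give, for each library, the median over the tested genes of a role of log2(FPKM + 1) minus the floxed mean (vertical axis), with all 13390 tested genes at the left for comparison. The knockout points lie below the floxed points for the MCM, clamp, G1/S and all 3 mitotic roles, with knockout replicate 2 at -1.26 for the mitotic kinases and cyclins and at -0.12 for all genes.

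The 3 D-type cyclins, which couple growth signals to CDK4 and CDK6, were mixed, and in all of them the groups overlapped. Ccnd1 was the only tested member above 0. It read 31.22, 43.79 and 46.06 FPKM in floxed and 90.97, 50.39 and 30.23 in knockout replicates 1, 2 and 3 (log2 fold change 0.37, SE 0.378, limma adjusted p = 0.549). A single library, knockout replicate 1, carried its higher mean, and without it the log2 fold change was -0.026. Ccnd2 read 11.96, 6.76 and 11.11 in floxed and 4.08, 4.07 and 7.25 in knockout libraries (-0.84, SE 0.273, limma adjusted p = 0.134). It resembled the mitotic genes in size, but knockout replicate 3 was above floxed replicate 2. Ccnd3 read 61.17, 60.20 and 64.87 in floxed and 70.13, 63.79 and 49.23 in knockout libraries (-0.038, SE 0.151). Its knockout values lay on both sides of the floxed range.

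**Figure D5:**
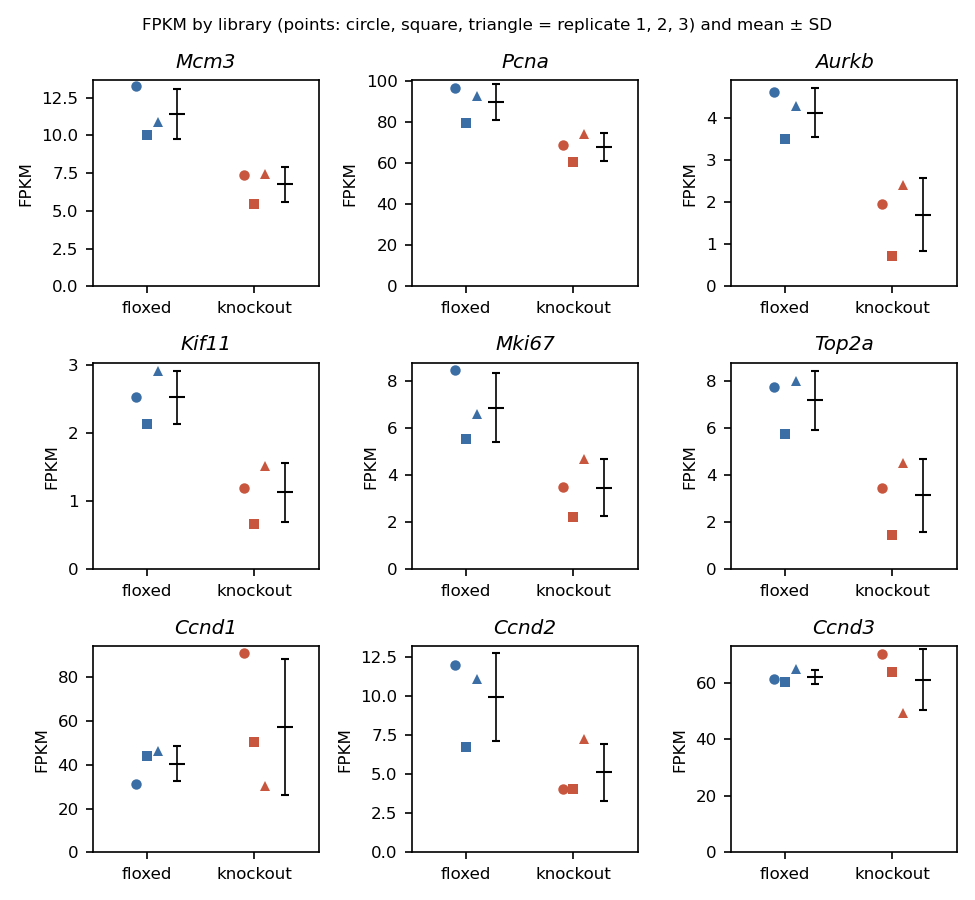
FPKM (vertical axes, each from 0) of 9 members in the 3 floxed and 3 knockout libraries, with points for replicates and bars for the mean ± SD of 3. Knockout points lie below all floxed points for Mcm3, Pcna, Aurkb, Kif11, Mki67 and Top2a, while Ccnd1 spans 30.23 to 90.97 FPKM in the knockout libraries.

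Other genes of the same pathways, from wider lists without the members, were mostly on the same side with smaller fold changes, and 0 passed the adjusted threshold. Without knockout replicate 3, 7 other replication and 15 other mitotic genes passed it, in either direction, against 3293 of 13268 genes over the whole table. Over 13390 tested genes 8761 were below 0, with 16.3% lower and 8.38% higher at an unadjusted p under 0.05. Of 46 tested replication genes 43 were below 0, with 10 lower (21.7%) and 1 higher (2.17%) at that p and a median of -0.26. Dbf4 and Cdc7, the subunits of the kinase that fires origins, had the smallest p of that list. Dbf4 read 5.64 ± 0.641 in floxed and 3.43 ± 0.455 FPKM in knockout libraries (limma adjusted p = 0.0931), and Cdc7 3.57, 2.04 and 2.23 against 0.91, 1.19 and 1.32. Of 54 tested mitotic genes 49 were below 0, with 24 lower (44.4%) and 1 higher (1.85%) and a median of -0.48. The 24 include Kif4 and Cdca2, named here because they passed the filter through their floxed libraries alone. In the same list Hjurp, the loader of the centromere histone, read 33.3 ± 5.53 and 20.2 ± 3.12 FPKM (limma adjusted p = 0.0839). The centromere protein Cenpm read 2.13 ± 0.176 and 1.03 ± 0.386. Hjurp stood far above the list's median floxed level of 3.22 FPKM, and its lowest library was knockout replicate 1, at 17.87 FPKM. Strand use in counting is not given in the sources used here, so reads of overlapping genes cannot be told apart in such values.

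Upstream regulators were mixed. In the list of E2F, RB and MuvB genes 12 of 16 were below 0, against 8761 of 13390 tested genes. At an unadjusted p under 0.05, 3 of the 16 were lower (18.8%), against 16.3% of all tested genes. Tfdp1, the partner that E2F factors need to bind DNA, read 27.63, 28.45 and 30.52 FPKM in floxed and 16.26, 18.15 and 22.80 in knockout libraries (limma adjusted p = 0.0901). The repressor E2f8 read 1.87, 1.21 and 1.55 against 0.81, 0.44 and 1.01. The highest fold change of that list was 1.06, for Lin54, which is named after its values were seen. Lin54 read 3.53, 2.84 and 3.17 against 7.08, 3.09 and 19.03 FPKM, and the groups overlapped (limma adjusted p = 0.249). All 6 tested genes among the G1 kinases, Cdc25a and the Myc genes were below 0. Cdk4, the partner of the D-type cyclins, read 108.32, 112.10 and 105.03 against 76.86, 71.54 and 86.55 FPKM (limma adjusted p = 0.0915), and Mycn 4.73, 5.23 and 4.14 against 1.20, 2.01 and 3.04. Both separated the groups. The CDK inhibitors did not: 0 of 6 had an unadjusted p under 0.05, with Cdkn1c at 29.48, 16.88 and 25.98 against 13.40, 23.82 and 9.59 FPKM and Cdkn2b at 4.81, 6.60 and 5.10 against 2.22, 3.21 and 6.23. Without knockout replicate 3, however, 2 of them passed the limma adjusted threshold as lower, Cdkn1a (adjusted p = 0.0333) and Cdkn2b (adjusted p = 0.0319). In that setting 15.8% of all tested genes passed as lower.

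Markers of other cells differed with the genotype, and in whole tissue fewer cells of a type and less RNA per cell cannot be told apart. All 10 macrophage markers were lower at an unadjusted limma p under 0.05, with summed levels of 2124 to 2977 FPKM in floxed and 803.7 to 1588 in knockout libraries. Of 10 fibroblast markers 8 were lower, with sums of 618.5 to 814.4 and 124.9 to 374.6 FPKM. Of each of these 2 lists 1 marker passed the adjusted threshold. Of 10 proximal tubule markers 8 were higher, with sums of 517.1 to 759.0 and 927.0 to 3367 FPKM, and of 8 distal nephron and collecting duct markers 7 were higher, with sums of 624.2 to 815.0 and 899.3 to 1904. Injured tubule markers had 0 of 10 past that p in either direction and overlapping sums of 12780 to 20470 and 11710 to 19970 FPKM. Without knockout replicate 3, however, 4 of 10 passed the limma adjusted threshold, against 3293 of 13268 genes, and the median went from -0.46 to -0.74. In that setting 10 of 10 macrophage, 9 of 10 fibroblast, 10 of 10 proximal tubule and 8 of 8 distal nephron and collecting duct markers passed it. Of the endothelial and of the T cell markers 0 did. Endothelial and T cell markers each had 1 lower, of 8 and of 9 in the table. Over all tested genes 16.3% were lower and 8.38% higher at that unadjusted p. No list had a marker at 0 in every library. Within the knockout group, the macrophage sum was lowest in replicate 1 (803.7 FPKM) and the fibroblast sum in replicate 2 (124.9), whereas the median of the fibroblast markers relative to the floxed mean was lowest in replicate 1 (-2.04, against -1.88 in replicate 2). The 8 genes that every cell uses had a median log2 fold change of -0.0041, with a range of -1.03 to 0.52 and 1 lower at an unadjusted p under 0.05. Of these 2 passed the adjusted threshold without knockout replicate 3, against the same 3293 of 13268 genes. The part of these cells in the cell cycle values was not tested.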

How the data were processed

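The deposited table holds FPKM per gene and library, which the authors rounded to 2 decimals. The unit is given per the file headers. Per the submitters' processing notes the genome build was mm9. The sources used here name no aligner, counter or annotation: these are not given. Groups and replicate numbers come from the sample titles. No library pair was identical. A gene entered the fit when 3 or more of the 6 libraries reached 1 FPKM (13390 of 18849 genes did). Groups were compared on log2(FPKM + 1) in limma 3.58.1 under R 4.3.3, using its trend option and no covariate. Tests were two-sided, and p-values were adjusted over all tested genes by Benjamini-Hochberg, with a threshold of 0.05. The fit was tested on simulated data first. Lists are described by counts and medians with no test. Depth was estimated from low values of single-transcript genes, of which 62.4% to 69.8% lay within 0.2 of a whole fragment (40% if spread evenly). Promoters were searched with Python 3.11.15.

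Members, lists and the naming rule were set with earlier results of these data known. The text names the 2 members per role with the smallest p, Mcm2, Pcna, Mki67, Top2a, Ccnb1, Cdk1, the D-type cyclins and members outside the fit with all library values, and the 2 genes with the smallest p of each pathway list. The overlapping libraries and other members named were chosen after their values were seen. Alternatives were other pseudocounts, filters and scalings, limma without trend, array weights, a replicate block and leaving out each library.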

Additional observations from a re-analysis of the deposited data

How the results depend on the processing

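The medians over members, replication members and mitotic members stayed below 0 in every alternative, and each moved by less than the SD between replicates. The mitotic minus replication difference of -0.23 was -0.44 with a pseudocount of 0.1, -0.48 with 0.01 and -0.43 with a mean FPKM of at least 5, and -0.12 both with quantile normalization and without knockout replicate 2. The count of members lower at an unadjusted p (26) was 13 with quantile normalization (12.0% of all genes) and 13 of 22 tested with a mean FPKM of at least 5 (14.5% of all genes). It was 13 to 32 with 1 library left out, where 10.2% to 27.3% of all genes were lower, with 0 to 1 members and 4.91% to 13.4% of all genes higher. Members past the adjusted threshold numbered 1 (Aurkb) with array weights, whose estimation did not fully converge, and 0 to 20 with 1 library left out, 20 being without knockout replicate 3. Genes past it over the table (9) numbered 1 with either other pseudocount, no filter, a mean of at least 5, median-ratio scaling, quantile normalization or no trend, 1456 with array weights, and 0 to 3293 with 1 library left out. The replicate numbers share only a number: same-numbered libraries deviated with correlations of -0.13, -0.070 and 0.034 across genes. With the replicate block 2 genes passed over the table and 0 members, and 30 members were lower at an unadjusted p, against 13.8% of all genes. Abl1 kept its direction and did not pass in any alternative.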

Other observations

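A few genes of the wider lists ran against the rest, and they are named here after their values were seen. Among the tested replication genes these included Gmnn, the inhibitor of Cdt1, at 18.01, 13.66 and 15.79 FPKM in the floxed libraries against 25.39, 18.08 and 17.50 in the knockout libraries, and Orc5. Among the tested mitotic genes they were Spc25, a kinetochore subunit, at 10.16, 7.83 and 11.56 against 17.83, 16.34 and 10.69, Pttg1 (securin) at 66.11, 52.06 and 48.79 against 66.07, 89.47 and 59.10, Cks2, Cdc25b and Depdc1b. None of those named passed the limma test (lowest adjusted p = 0.194, for Spc25), and in each of them the groups overlapped. Without knockout replicate 3, Spc25 passed it (adjusted p = 0.0288).

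Floxed replicate 1, the library with the highest value in 15 of 18 replication members, stood apart in B and plasma cell markers. Their sum was 3833 FPKM there, 22.7 and 16.9 in the other floxed libraries and 328.9 to 1156 in the knockout libraries, most of it Jchain, the joining chain of secreted antibodies, at 3567.12 FPKM. Its T cell marker sum was 142.6 FPKM, against 31.4 to 41.7 in the other 5 libraries. Without that library the fold changes of Cdt1, Tk1 and E2f2 changed sign. The part of these cells in the replication values was not tested.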
